A study of Mus musculus with 2 samples.

Results

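The genes described here are the molecular chaperones and protein disulfide isomerases of the mouse small intestine. They were chosen by gene symbol among annotated protein-coding genes, as the HSP70 (Hspa), HSP90 (Hsp90), HSP110 (Hsph1), small heat shock (Hspb) and mitochondrial chaperonin (Hspd, Hspe) genes, the J-domain genes (Dnaja, Dnajb, Dnajc) and the Pdia isomerase genes. Of 77 annotated genes with such a symbol, 76 were measured, among 21474 protein-coding genes and 43346 Ensembl genes in all; Hspa14 was not analysed here. They comprise 45 J-domain genes, 13 HSP70 family genes (Hsph1 included), 8 small heat shock genes, 5 Pdia genes, 3 HSP90 genes and the 2 chaperonin genes Hspd1 and Hspe1. The rule itself uses symbols and no measured value, though the gene families were picked with earlier results of these data known.

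Poly(A)-selected RNA was sequenced in 2 libraries from whole small intestine of C57BL/6J mice, an inbred strain, at 8 weeks of age. Per the labels, they are biological replicates 1 and 2 of 1 group, from separate biosamples under 1 shared strain-level donor entry. Male and female littermates were pooled, no treatment or segment of the intestine is named and the health state is given as unknown. The labels do not say how many animals each pool held, and with 1 group of n = 2 there is no test between groups, so levels are given for each replicate, with the mean ± SD over both for sums.

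Chaperones bind unfolded proteins and help them reach or keep their folded form. HSP70 proteins do this in cycles of ATP hydrolysis that J-domain proteins start and direct, HSP90 proteins act on partly folded clients, small heat shock proteins hold unfolding proteins without using ATP, and the mitochondrial chaperonin encloses its clients in a chamber. In the endoplasmic reticulum (ER), the HSP70 protein BiP (Hspa5), the HSP90 protein Grp94 (Hsp90b1) and the Pdia isomerases, which form and rearrange disulfide bonds, fold the secreted and membrane proteins that intestinal epithelium, its goblet and Paneth cells and antibody-secreting plasma cells make in quantity. When unfolded proteins accumulate, the ER chaperone genes are induced through an ER stress element in their promoters, which binds ATF6 and XBP1 together with NF-Y, and the cytosolic ones through heat shock elements, which bind HSF1.

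Those elements are shown first because they are the sequence by which the genes of each compartment are known to be induced. RefSeq promoters (GRCm38.p6, from 250 bases before to 50 bases after each start) were available for 62 of the 76 genes, as 79 promoters of 32851 in the table, and were searched on both strands. The ER stress element, CCAAT and CCACG with 9 bases between them, was found in 4 of the 79 promoters (5.06%) and in 0.119% of all promoters. All 4 belong to ER lumen genes, namely Dnajc3, Hsp90b1, Hspa5 and Pdia6, and Hsp90b1 has 2 copies. The sites are printed in the direction of the gene, with the fixed letters of the element in capitals.
Dnajc3, chr14:118937822-118937850, plus strand: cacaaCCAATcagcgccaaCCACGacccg
Hsp90b1, chr10:86705528-86705556, minus strand, element on the opposite strand: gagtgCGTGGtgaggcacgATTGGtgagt
Hsp90b1, chr10:86705633-86705661, minus strand: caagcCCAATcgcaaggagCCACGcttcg
Hspa5, chr2:34772020-34772048, plus strand: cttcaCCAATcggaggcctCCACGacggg
Pdia6, chr12:17266486-17266514, plus strand: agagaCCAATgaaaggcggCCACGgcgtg

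The heat shock element consists of GAA and TTC units in alternating direction. Its pair GAANNTTC was found in 16 member promoters (20.3%), of 14 genes, against 7.86% of all promoters, and the pair TTCNNGAA in 8 (10.1%), of 6 genes, against 8.52%. The triple GAA, TTC and GAA with 2 bases between neighbours, which contains both pairs and whose search was added after the data had been seen, was found in 6 (7.59%), of the genes Dnajb6, Hspd1, Hspe1 and Hsph1, against 0.603%. Hspd1 and Hspe1 lie head to head on chromosome 1, so their promoters hold the same stretch and are not separate cases. Capitals mark the 3 units. A match describes letters only, and a promoter without one may hold other forms of the element.
Hspe1, chr1:55088056-55088084, plus strand: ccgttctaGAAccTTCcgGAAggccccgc
Dnajb6, chr5:29735844-29735872, plus strand: agctccgaGAAtcTTCcgGAAcgctagac

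The libraries held 45472946 expected counts (replicate 1) and 45822403 (replicate 2), so a gene with 0 counts may still hold up to 6.60e-06% of replicate 1 and 6.55e-06% of replicate 2, taken as 3 counts of the total and covering counting error only. Levels are TPM, transcript abundances corrected for transcript length and scaled to the same total in each library. All 10 enterocyte, 7 Paneth cell and 8 goblet cell marker genes were present at 1 TPM or more in both libraries, but at unlike levels. Enterocyte markers summed to 9289 TPM in replicate 1 against 23569 TPM in replicate 2. Paneth cell markers summed to 2466 TPM in replicate 1 against 10686 TPM in replicate 2, and goblet cell markers to 12126 against 24462 TPM. By sum, markers of neighbouring organs were higher in replicate 1. The 16 exocrine pancreas markers summed to 269364 TPM in replicate 1 against 1787 TPM in replicate 2. The 10 stomach markers summed to 19753 TPM in replicate 1 against 51.5 TPM in replicate 2. TPM is a share of each library, and the median of the 12260 genes of mean TPM 1 or more lay at -0.66 on the log2 scale, replicate 1 over replicate 2. Replicate ratios below are log2((TPM + 1)/(TPM + 1)), replicate 1 over replicate 2, minus that median, and are called centred ratios; the added 1 TPM understates those of low genes. A gene was called past 2-fold at a centred ratio above 1 or below -1, which 6.32% of these 12260 genes reached with replicate 1 higher and 5.03% with replicate 2 higher. Past 2-fold with replicate 2 higher were 6 enterocyte, 6 Paneth cell and 2 goblet cell markers. With replicate 1 higher there was 1 enterocyte marker. Their median centred ratios were -1.58 for enterocyte, -1.35 for Paneth cell and -0.32 for goblet cell markers.

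Most of the 76 genes were expressed, and a few held most of the RNA. A total of 52 of the 76 reached 1 TPM in both replicates, against 49.3% of all protein-coding genes. By mean level, 4 genes were at 100 TPM or more, as were 4.78% of protein-coding genes, 24 were between 10 and 100 TPM, 28 between 1 and 10 TPM and 20 under 1 TPM. The summed level was 2476 TPM in replicate 1 against 3032 TPM in replicate 2 (2754 ± 393, SD, n = 2). Pdia3, Hspa8 and Hspa5 together held 63.4% of it in replicate 1 and 65.5% in replicate 2. As shown further on, most of that TPM was assigned to short transcript models not classed as protein coding.

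**Figure D1:**
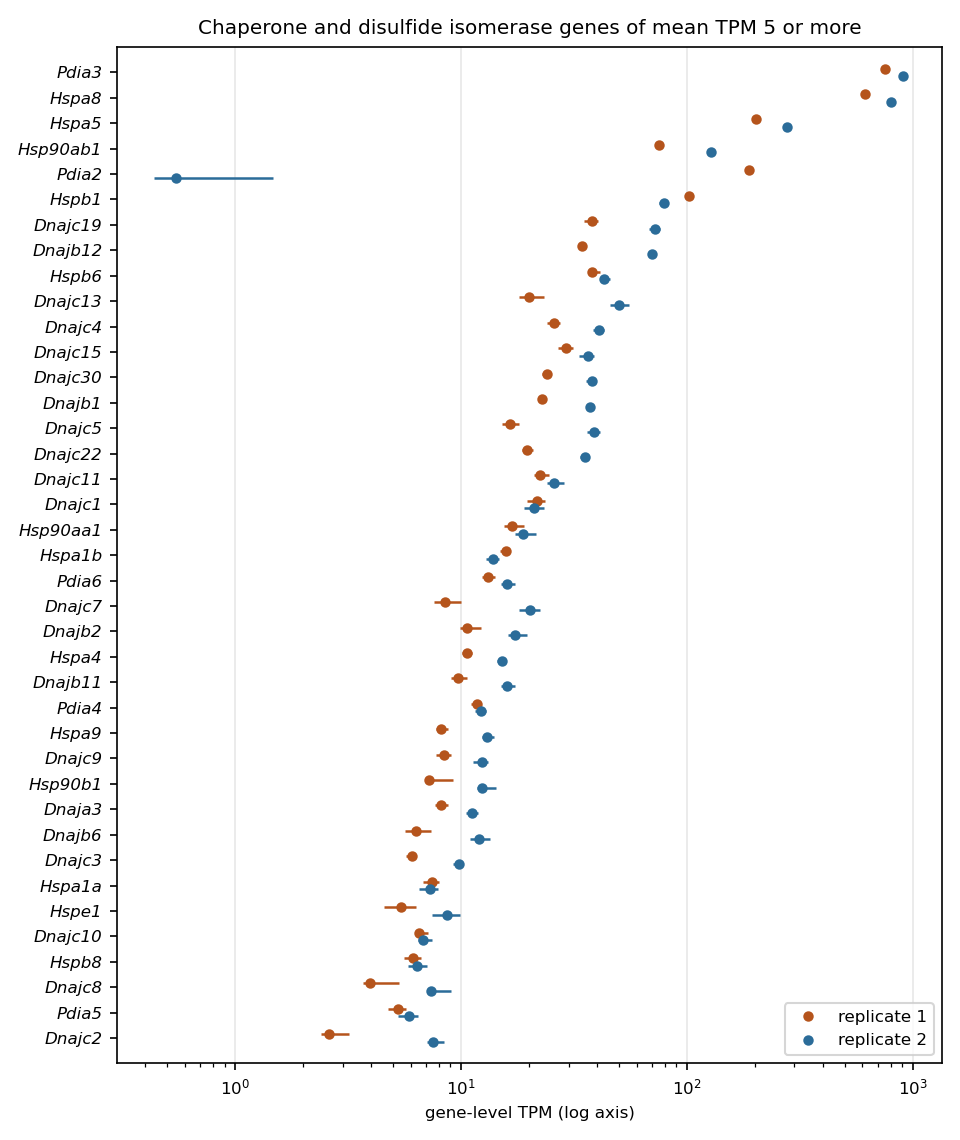
Gene-level TPM (log axis) of the chaperone and disulfide isomerase genes of mean TPM 5 or more, with a point for replicate 1 and a point for replicate 2 and, as bars, the deposited credibility interval of each. Most genes sit slightly lower in replicate 1, as the median gene does, whereas Pdia2 lies at 188 TPM in replicate 1 and at 0.55 TPM in replicate 2.

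The ER lumen genes carried the highest single level. Pdia3 (ENSMUSG00000027248.9, chromosome 2, 121413775 to 121438687, GRCm38), the isomerase that folds glycoproteins held by calnexin and calreticulin, was at 753 TPM in replicate 1 and at 908 TPM in replicate 2. Hspa5 (ENSMUSG00000026864.9, chromosome 2, 34771970 to 34777547), encoding BiP, was at 202 TPM in replicate 1 and at 279 TPM in replicate 2. Both were lower in replicate 1 as plain TPM and above the median gene once centred, with centred ratios of 0.40 for Pdia3 and 0.20 for Hspa5.

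The other isomerases expressed in both replicates were much lower in both libraries. Pdia6, which also limits signalling by ER stress sensors, was at 13.1 TPM in replicate 1 and at 16.0 TPM in replicate 2. Pdia4, a larger isomerase with an added active domain, was at 11.8 TPM in replicate 1 and at 12.3 TPM in replicate 2. Pdia5 was at 5.28 TPM in replicate 1 and at 5.92 TPM in replicate 2. The credibility intervals of Pdia4 and of Pdia5 overlapped between replicates and those of Pdia6 did not. All 5 Pdia genes had centred ratios above 0 (50% of all genes by construction), from 0.40 to 7.59, while as plain TPM only Pdia2 was higher in replicate 1.

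Pdia2 separated the libraries more than any other of the 56 genes compared. Pdia2 (ENSMUSG00000024184.11, chromosome 17, 26195999 to 26199087) is the isomerase of pancreatic acinar cells. It was at 188 TPM (11518 expected counts) in replicate 1 and 0.55 TPM (32.8 expected counts) in replicate 2, a 342-fold difference, and its centred ratio was 7.59. This is the direction of all 16 exocrine pancreas markers, whose centred ratios ran from 2.95 to 9.80. It is also that of the 8 stomach markers of mean 1 TPM or more, from 3.51 to 9.66, so direction alone does not tell these lists apart. The part of pancreatic RNA in the level of any other gene here was not tested. In whole tissue, more cells of a type and more RNA per cell cannot be told apart.

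BiP works with J-domain partners, and these were at moderate to low levels. Dnajb11, which delivers unfolded proteins to BiP, was at 9.76 TPM in replicate 1 and at 16.1 TPM in replicate 2. Dnajc3, also an inhibitor of the kinases that halt translation under stress, was at 6.09 TPM in replicate 1 and at 9.78 TPM in replicate 2. Dnajc10, a J-domain protein that reduces disulfide bonds of proteins bound for degradation, was at 6.56 TPM in replicate 1 and at 6.78 TPM in replicate 2. Of these partners, Dnajc10 had the highest centred ratio, at 0.62, and its intervals overlapped. Dnajb9, which holds the stress sensor IRE1 inactive together with BiP, was at 0.53 TPM in replicate 1 and at 1.31 TPM in replicate 2, and Hspa13, a microsome-associated HSP70 relative, at 0.89 TPM in replicate 1 and at 0.96 TPM in replicate 2. Hsp90b1, the ER member of the HSP90 family, was at 7.27 TPM in replicate 1 and at 12.4 TPM in replicate 2, which is lower than cytosolic Hsp90ab1 in both libraries.

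Over the 12 ER lumen genes the summed level was 1205 TPM in replicate 1 against 1269 TPM in replicate 2 (1237 ± 44.9, SD, n = 2), and without Pdia2 it was 1017 TPM in replicate 1 against 1268 TPM in replicate 2. The 10 of them with a mean of 1 TPM or more had a median centred ratio of 0.40, which was 0.036 when centred on the spike-in RNAs and -0.27 without centring. The 20 measured cytosolic core genes (HSP70, HSP90 and their J-domain partners) summed to 803 TPM in replicate 1 against 1101 TPM in replicate 2 (952 ± 210, SD, n = 2). The log2 ratio of ER lumen to cytosolic sums was 0.58 in replicate 1 against 0.20 in replicate 2 (0.39 ± 0.27, SD, n = 2). On protein-coding transcripts alone it was 0.68 in replicate 1 against -1.07 in replicate 2 (-0.19 ± 1.24, SD, n = 2). Pdia2 set that spread, with coding TPM of 188 in replicate 1 and 0.55 in replicate 2. Without it, coding transcripts of the ER lumen summed to 149 TPM in replicate 1 against 150 TPM in replicate 2, and those of the cytosolic core to 210 TPM in replicate 1 against 315 TPM in replicate 2. The log2 ratio was then -0.49 in replicate 1 against -1.07 in replicate 2 (-0.78 ± 0.41, SD, n = 2), below 0 in both, whereas on all transcripts without Pdia2 it was 0.34 in replicate 1 against 0.20 in replicate 2. The direction therefore depended on which transcripts were counted.

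In the cytosol the constitutive HSP70 and HSP90 genes stood above their heat-inducible relatives. Hspa8 (ENSMUSG00000015656.12, chromosome 9, 40800984 to 40810087), encoding the constitutive Hsc70, was at 613 TPM in replicate 1 and at 798 TPM in replicate 2, with a centred ratio of 0.28. Hsp90ab1 (ENSMUSG00000023944.10, chromosome 17, 45567775 to 45573271), the constitutive HSP90, was at 75.3 TPM in replicate 1 and at 129 TPM in replicate 2. Its heat-inducible relative Hsp90aa1 was at 16.8 TPM in replicate 1 and at 18.9 TPM in replicate 2, below Hsp90ab1 in both libraries by more than their credibility intervals.

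The inducible HSP70 genes Hspa1b and Hspa1a are near-identical copies whose reads cannot be cleanly divided, so their separate values are uncertain. Hspa1b was at 15.8 TPM in replicate 1 and at 14.0 TPM in replicate 2, and Hspa1a at 7.46 TPM in replicate 1 and at 7.29 TPM in replicate 2. They were slightly higher in replicate 1 as plain TPM, with centred ratios of 0.83 for Hspa1b and 0.69 for Hspa1a. Across the 9 heat-inducible genes listed (Hspa1a and Hspa1b among them) the sum was 177 TPM in replicate 1 against 178 TPM in replicate 2 (178 ± 0.156, SD, n = 2). Hspb1, described further on, balanced the sum: the other 8 summed to 75.1 TPM in replicate 1 against 98.0 TPM in replicate 2. The median centred ratio of the 8 listed genes of mean 1 TPM or more was 0.29. The 8 immediate early genes, which respond within minutes to handling of tissue, summed to 293 TPM in replicate 1 against 768 TPM in replicate 2, with a median centred ratio of -0.79.

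Among cytosolic partners, Dnajb1, the J-domain partner of inducible HSP70, led with 23.0 TPM in replicate 1 against 37.3 TPM in replicate 2. The nucleotide exchange factors of the HSP110 type were lower, with Hspa4 at 10.7 TPM in replicate 1 and at 15.3 TPM in replicate 2, and Hsph1 at 3.30 TPM in replicate 1 and at 5.50 TPM in replicate 2. Dnajb2, a J-domain protein that binds ubiquitin, was at 10.6 TPM in replicate 1 and at 17.4 TPM in replicate 2, and Dnajb6, which keeps polyglutamine proteins from aggregating, was at 6.33 TPM in replicate 1 and at 12.1 TPM in replicate 2. Their centred ratios lay between -0.17 and 0.19, so by TPM these genes followed the median gene. For Hsph1 the expected counts ran the other way from TPM, with 391 in replicate 1 against 202 in replicate 2. Its estimated length was greater in replicate 1, at 2566 against 1150 nt, and its credibility intervals overlapped. Coding transcripts held 27.3% of Hsph1 TPM in replicate 1 and 14.7% in replicate 2. The type A J-domain genes of the cytosol were low, with Dnaja2 at 1.10 TPM in replicate 1 and at 2.06 TPM in replicate 2 and Dnaja1 at 0.53 TPM in replicate 1 and at 1.27 TPM in replicate 2. Hspa2, known for its role in sperm formation, was at 2.15 TPM in replicate 1 and at 5.14 TPM in replicate 2.

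Among the cytosolic core genes of mean 1 TPM or more, Dnajc2 and Dnajc7 had the lowest centred ratios. Dnajc2, which sits on the ribosome and works on emerging chains, was at 2.60 TPM in replicate 1 and at 7.57 TPM in replicate 2, a centred ratio of -0.59. Dnajc7, whose tetratricopeptide repeats bind both HSP70 and HSP90, was at 8.50 TPM in replicate 1 and at 20.2 TPM in replicate 2, a centred ratio of -0.49. Neither gene reached a 2-fold difference from the median gene, and the median centred ratio of the 16 cytosolic core genes of mean 1 TPM or more was 0.05.

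Small heat shock genes had the highest median centred ratio of the families, at 0.89, followed by the Pdia genes at 0.52, the HSP70 genes at 0.19, the chaperonin genes at 0.039, the J-domain genes at 0.027 and the HSP90 genes at -0.03; the difference between families was not tested. Hspb1 (ENSMUSG00000004951.10, chromosome 5, 135887919 to 135889563), encoding Hsp27, which protects actin filaments, was at 102 TPM in replicate 1 and at 79.6 TPM in replicate 2, a centred ratio of 1.02. Hspb6, encoding the Hsp20 that is phosphorylated when smooth muscle relaxes, was at 38.3 TPM in replicate 1 and at 43.2 TPM in replicate 2. Hspb8, which forms an autophagy complex with Bag3, was at 6.12 TPM in replicate 1 and at 6.42 TPM in replicate 2. The muscle genes Hspb7 and Hspb2 completed the expressed set. Hspb7 was at 4.62 TPM in replicate 1 and at 3.81 TPM in replicate 2, and Hspb2 (ENSMUSG00000038086.3, chromosome 9, 50751078 to 50752354) at 3.81 TPM (117 expected counts) in replicate 1 and 1.59 TPM (39 expected counts) in replicate 2.

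Relative to the median gene all 5 of these were higher in replicate 1, with centred ratios of 0.49 to 1.56, while as plain TPM Hspb6 and Hspb8 were slightly higher in replicate 2. Exons of Hspb2 overlap those of Cryab, a small heat shock gene of muscle and lens on the opposite strand that the symbol rule leaves out, at 13.1 TPM in replicate 1 against 8.61 TPM in replicate 2, a centred ratio of 1.21. The libraries are stranded, but the sources do not say that strand was used in counting, so the values of the 30 members whose exons overlap another gene carry this limit. The 8 small heat shock genes summed to 155 TPM in replicate 1 against 135 TPM in replicate 2 (145 ± 14.1, SD, n = 2). The 10 smooth muscle markers moved the same way: all had centred ratios above 0, from 0.44 to 1.14 with a median of 0.87, and they summed to 1410 TPM in replicate 1 against 1261 TPM in replicate 2. Des, the muscle filament desmin, was at 174 TPM in replicate 1 and at 124 TPM in replicate 2, and Acta2, smooth muscle actin, at 454 TPM in replicate 1 and at 411 TPM in replicate 2. The part of muscle RNA in the small heat shock values was not tested.

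The 8 mitochondrial genes were all present at 1 TPM or more in both replicates and kept close to the median gene. Dnajc19, a subunit of the motor that pulls proteins into the matrix, was the highest, at 38.2 TPM in replicate 1 and at 72.4 TPM in replicate 2. Dnajc15, its inner membrane relative, was at 29.3 TPM in replicate 1 and at 36.5 TPM in replicate 2, and Dnajc30, linked in human cells to the respiratory chain, at 24.1 TPM in replicate 1 and at 38.0 TPM in replicate 2. Dnajc11, a protein of the outer membrane that supports cristae, was at 22.5 TPM in replicate 1 and at 26.0 TPM in replicate 2. At gene level the soluble matrix machinery was lower than these membrane-bound J-domain genes. On coding transcripts alone this held in full only for Dnajc19 and Dnajc30. Dnajc15 had no coding TPM. Coding TPM of Dnajc11 fell below that of the matrix gene Hspa9, at 6.54 against 8.11 (replicate 1) and 12.04 against 12.53 (replicate 2). Between Dnajc11 and Dnaja3 the coding order differed by replicate, whereas Dnajc11 stayed above Hspe1 and Hspd1. Hspa9, the matrix HSP70, was at 8.17 TPM in replicate 1 and at 13.1 TPM in replicate 2, and its partner Dnaja3 at 8.15 TPM in replicate 1 and at 11.2 TPM in replicate 2. Of the chaperonin, the lid gene Hspe1 was at 5.42 TPM in replicate 1 and at 8.73 TPM in replicate 2 and the barrel gene Hspd1 at 2.81 TPM in replicate 1 and at 4.98 TPM in replicate 2. The mitochondrial sum was 139 TPM in replicate 1 against 211 TPM in replicate 2 (175 ± 51.1, SD, n = 2), and the median centred ratio was 0.05. By centred ratio none of the 8 passed 2-fold, against 6.32% of all 12260 genes with replicate 1 higher and 5.03% with replicate 2 higher.

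The 6 J-domain genes of the ER membrane, whose J domains face the cytosol or the lumen, were led by Dnajb12, a helper of Hsc70 in the degradation of membrane proteins. It was at 34.6 TPM in replicate 1 and at 70.2 TPM in replicate 2, a centred ratio of -0.34. Dnajc1 was at 21.7 TPM in replicate 1 and at 21.02 TPM in replicate 2, a centred ratio of 0.71, with overlapping intervals. Coding transcripts held only 7.59% of Dnajc1 TPM in replicate 1 and 11.7% in replicate 2, and on them the ratio was 0.28. Dnajc14 was at 3.21 TPM in replicate 1 against 5.78 TPM in replicate 2 and Dnajc16 at 2.55 TPM in replicate 1 against 4.36 TPM in replicate 2, and Dnajb14, the paralog of Dnajb12, at 0.90 TPM in replicate 1 and at 1.61 TPM in replicate 2. These genes thus spread to both sides of the median gene.

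The other J-domain genes serve single processes, and none of the 30 J-domain genes of mean 1 TPM or more differed 2-fold. Dnajc13, which remodels clathrin on endosomes, was at 20.1 TPM in replicate 1 and at 50.2 TPM in replicate 2, the lowest centred ratio of these genes at -0.62. Dnajc5, the cysteine string protein of secretory vesicles, was at 16.5 TPM in replicate 1 and at 39.0 TPM in replicate 2, a centred ratio of -0.53. Both ratios lay below that of the median gene. On coding transcripts they were -0.40 for Dnajc13 and -0.36 for Dnajc5, closer to the median gene than Dnajc2 (-0.59), Dnajc7 (-0.48) and Dnajc8 (-0.44). Coding transcripts held 30.8% of Dnajc13 TPM in replicate 1 and 27.8% in replicate 2, and 50.5% and 46.2% of Dnajc5 TPM. Dnajc4 was at 26.0 TPM in replicate 1 and at 41.0 TPM in replicate 2, and Dnajc22, a membrane protein whose fly relative acts in endocytosis, at 19.7 TPM in replicate 1 and at 35.4 TPM in replicate 2. Dnajc9, a chaperone of histones, was at 8.47 TPM in replicate 1 and at 12.4 TPM in replicate 2. Dnajc8, a splicing factor, was at 3.98 TPM in replicate 1 and at 7.41 TPM in replicate 2. Dnajc25 was at 3.76 TPM in replicate 1 and at 3.40 TPM in replicate 2, the highest centred ratio among J-domain genes at 0.78, with overlapping intervals. Dnajb5 was at 3.40 TPM in replicate 1 and at 5.39 TPM in replicate 2. Dnajc24, which acts in the synthesis of diphthamide, was at 3.43 TPM in replicate 1 and at 4.20 TPM in replicate 2. Only 3.50% of that in replicate 1 and 1.67% in replicate 2 was in transcripts classed as protein coding. Dnajc17, a splicing factor, was at 1.24 TPM in replicate 1 and at 2.35 TPM in replicate 2.

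Over all families, the replicates agreed to within 2-fold of the median gene in most of the 56 genes of mean 1 TPM or more. Only Pdia2, Hspb2 and Hspb1 were over 2-fold higher in replicate 1, against 6.32% of the 12260 genes of that level, and only Hspa12a was over 2-fold higher in replicate 2, against 5.03%. Hspb1 lay at the threshold, and on all transcripts Dnajc13 was the next lowest after Hspa12a. Over the other scalings, pseudocounts and units tried, the ratio ran from 5.55 to 8.96 for Pdia2, from 0.85 to 1.99 for Hspb2, from 0.36 to 1.17 for Hspb1 and from -2.09 to -0.61 for Hspa12a, so only the Pdia2 call held throughout. Hspa12a (ENSMUSG00000025092.6, chromosome 19, 58795750 to 58943654), a distant HSP70 relative, was at 0.89 TPM (250 expected counts) in replicate 1 and 7.07 TPM (1535 expected counts) in replicate 2, a centred ratio of -1.43. Its exons overlap those of Eno4 on the opposite strand, a gene at 0 TPM in replicate 1 and at 0.01 TPM in replicate 2. Its closest relative Hspa12b, known from blood vessel endothelium, was at 1.73 TPM in replicate 1 and at 2.78 TPM in replicate 2, a centred ratio of 0.19. Intervals were apart in 43 of the 56 genes, near the background of 79.9%. Centred ratios were above 0 in 39 of the 56, against 50% of all genes by construction, with a median of 0.10. The sign of that median depended on the scaling. It was -0.26 when centred on the spike-in RNAs and -0.17 on uncentred TPM rescaled without pancreas and stomach markers. Without centring only Pdia2 was over 2-fold higher in replicate 1 and 6 genes were over 2-fold higher in replicate 2.

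**Figure D2:**
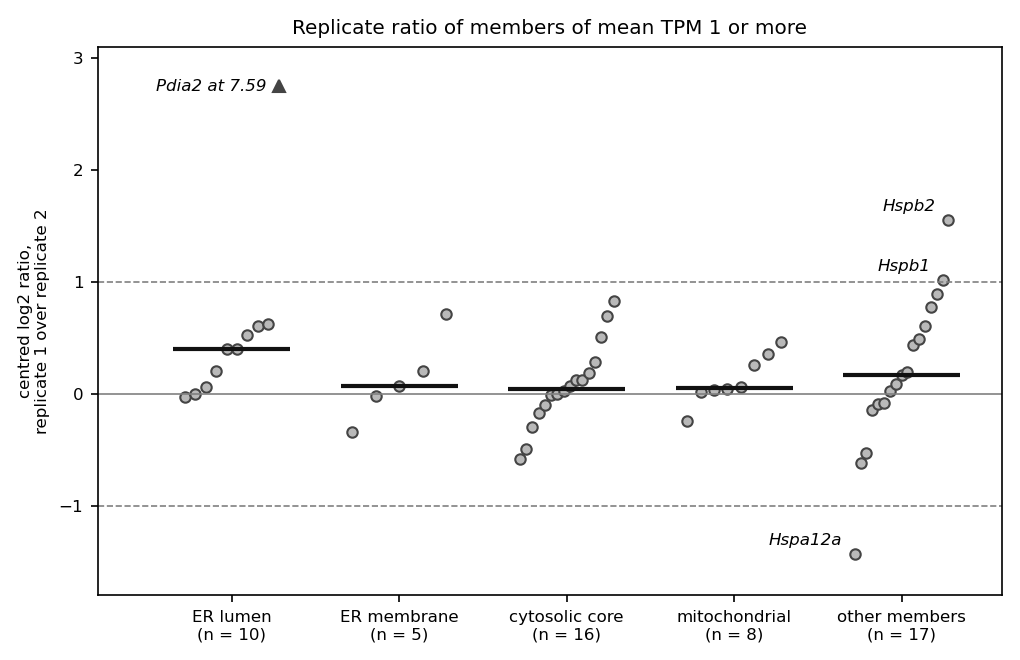
Centred log2 ratio of TPM, replicate 1 over replicate 2, for the 56 genes of mean TPM 1 or more, grouped by compartment, with 1 point for each gene and a horizontal bar at each group's median. Dashed lines mark 2-fold; Pdia2 lies off the scale at 7.59 and is drawn as a triangle at the top. ER lumen genes have a median of 0.40 and mitochondrial genes of 0.05.

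The transcript tables change what the highest gene levels stand for. Only 36.9% of the members' summed TPM in replicate 1 and 32.4% in replicate 2 belonged to transcripts that GENCODE M21 classes as protein coding, against 91.4% in replicate 1 and 87.6% in replicate 2 over all protein-coding genes. Pdia3, Hspa8 and Hspa5 weigh most in that sum, with coding shares of 6.20%, 5.99% and 21.2% in replicate 1 and 3.98%, 5.52% and 12.4% in replicate 2. The share was 71.5% in replicate 1 and 74.7% in replicate 2 for J-domain genes, 96.0% and 97.0% for HSP90 genes and 98.7% and 97.0% for small heat shock genes. Of the 28 members of mean TPM 10 or more, 9 (32.1%) had less than 50% of their TPM in coding transcripts, against 14.7% of protein-coding genes of that level. Over both replicates, the 9 were Pdia3, Hspa8, Hspa5, Dnajc13, Dnajc15, Dnajc5, Dnajc11, Dnajc1 and Dnajc7. For Dnajc15 the only model counted is classed as a target of nonsense-mediated decay.

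In Pdia3, 93.8% of TPM in replicate 1 and 96.0% in replicate 2 was assigned to Pdia3-204, a processed transcript of 400 nt. All of its bases lie within exons of the full-length coding transcript Pdia3-201, and their first bases are 108 bases apart in the genome. By expected counts the models were much closer, with 5908 counts for Pdia3-204 and 6027 for Pdia3-201 in replicate 1, and with 6263 for Pdia3-204 and 3631 for Pdia3-201 in replicate 2. TPM divides counts by the transcript length less about the fragment length, a reduction of 236 nt in replicate 1 against 218 nt in replicate 2. For that reason each count adds far more TPM to a model of 400 nt than to one of 2770 nt. The level of Pdia3-201 alone was 46.8 TPM in replicate 1 against 36.1 TPM in replicate 2.

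In both leading HSP70 genes a short model not classed as protein coding also held most of the TPM, but the shares of expected counts differed from those of Pdia3. Hspa5-204, of 477 nt and classed as a target of nonsense-mediated decay, held 78.2% of Hspa5 TPM in replicate 1 and 87.2% in replicate 2, and 98.5% of its bases lie in exons of coding Hspa5-202, at 41.2 TPM in replicate 1 and at 34.1 TPM in replicate 2. By expected counts the coding model led, since Hspa5-204 had 26.8% in replicate 1 and 43.0% in replicate 2 and Hspa5-202 had 68.7% in replicate 1 and 55.8% in replicate 2. Hspa8-209, a processed transcript of 727 nt that lies entirely in exons of Hspa8-201, held 70.5% of Hspa8 TPM in replicate 1 and 59.9% in replicate 2. It led by expected counts too, with 56.9% in replicate 1 and 49.4% in replicate 2, against 17.0% in replicate 1 and 19.5% in replicate 2 for Hspa8-201. Coding transcripts of Hspa8 summed to 36.7 TPM in replicate 1 against 44.1 TPM in replicate 2, less than those of Hsp90ab1, at 72.3 TPM in replicate 1 and at 125 TPM in replicate 2. The order of the top genes therefore depended on which models were counted. Whether the short models are present as RNA of their own was not tested.

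**Figure D3:**
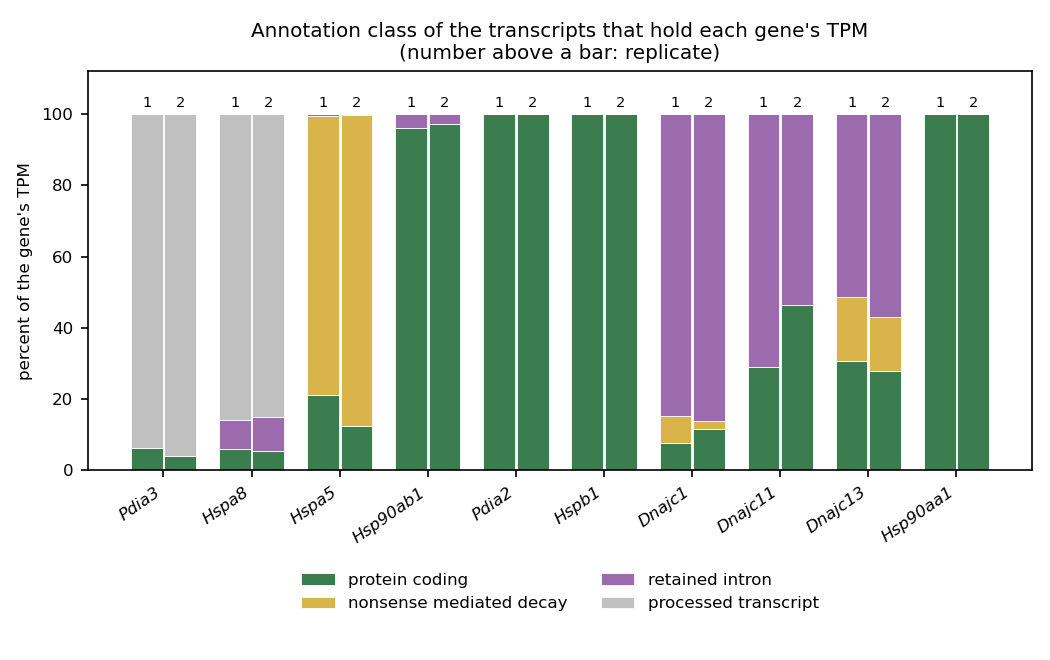
Percent of each gene's TPM by annotation class of the transcript that holds it, for 10 chosen genes, with a bar for replicate 1 and a bar for replicate 2. They are not the 10 of highest mean TPM. Dnajc1, Dnajc11 and Hsp90aa1 are shown, whereas Dnajc19, Dnajb12 and Hspb6, of higher mean TPM, are not. Coding transcripts hold 100%, 87.7% and 94.8% of the TPM of those left out in replicate 1 and 100%, 88.4% and 90.6% in replicate 2. Coding transcripts hold under 7% of the TPM of Pdia3 and Hspa8 in both replicates and nearly all of that of Hsp90ab1, Pdia2, Hspb1 and Hsp90aa1.

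Counting coding transcripts alone also raised the centred ratios of Pdia3 and Hspa5. The centred ratio of Pdia3 was 1.03 on this measure, just past the threshold, and that of Hspa5 was 0.97. As plain TPM the order turned, since on all transcripts both genes were lower in replicate 1. Coding TPM of Pdia3 was 46.8 in replicate 1 and 36.1 in replicate 2, and that of Hspa5 was 42.9 in replicate 1 and 34.5 in replicate 2. The centred ratio of Hspa8 was 0.41 and that of Hsp90b1 was -0.10. Of 52 genes compared on coding transcripts, 4 were over 2-fold higher in replicate 1, against 5.74% of 10899 genes, and 1 was over 2-fold higher in replicate 2, against 4.57%. These were the 3 and the 1 called on gene-level TPM together with Pdia3. The ER lumen median was 0.56 on coding transcripts and 0.52 without Pdia2. The pancreas and stomach marker sums given above, both higher in replicate 1, move with these ratios, and their part in them was not tested. The choice of coding transcripts was made after the data had been seen, and the TPM of the other models was left out, not reassigned.

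**Figure D4:**
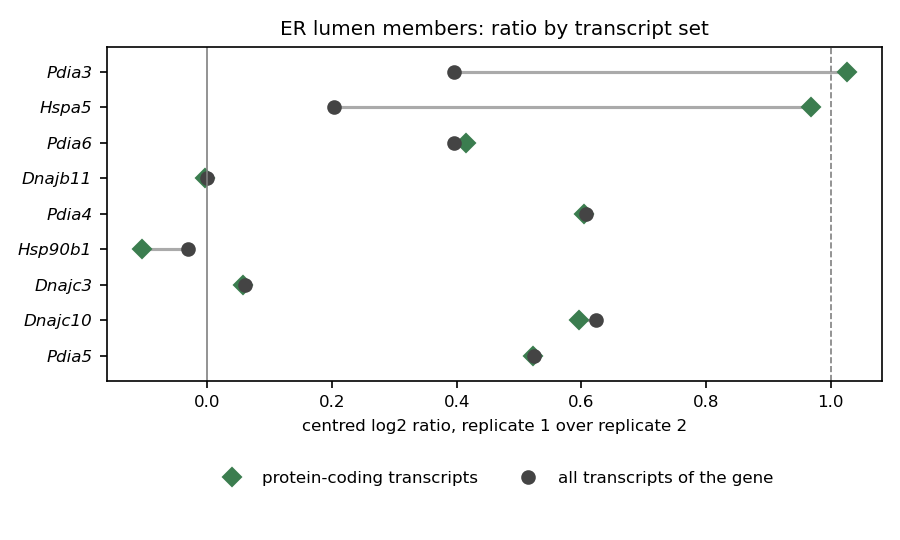
Centred log2 ratio, replicate 1 over replicate 2, of 9 ER lumen genes, on protein-coding transcripts (diamonds) and on all transcripts of the gene (circles), with Pdia2 left out for scale. Pdia3 moves to 1.03 on coding transcripts from 0.40 on all transcripts and Hspa5 to 0.97 from 0.20, while the circle and diamond of Pdia4, Pdia5 and Dnajc3 nearly coincide.

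Other genes of high level were split among several models. The most abundant model of Dnajc7 held 21.4% of its TPM in replicate 1 and 23.1% in replicate 2, the lowest share among genes of mean TPM 10 or more, and had 11.6% of its expected counts in replicate 1 and 12.3% in replicate 2. Dnajb2-210 held 53.4% of TPM in replicate 1 and 48.5% in replicate 2, but 76.2% of expected counts as the mean of both replicates. The intron-retaining Dnajc13-213, of 453 nt, held 49.1% of TPM in replicate 1 and 56.0% in replicate 2, but 9.81% of expected counts in replicate 1 and 13.3% in replicate 2, where coding Dnajc13-201 had 78.3% in replicate 1 and 75.9% in replicate 2. The widest gaps between replicates were in Pdia2, Dnajc11 and Dnajc5. Pdia2-201 held 68.7% in replicate 1 and 100% in replicate 2, where it rests on 32.8 counts. The intron-retaining Dnajc11-211, of 786 nt, held 63.6% of TPM in replicate 1 and 38.8% in replicate 2. Its share of expected counts was 24.6% in replicate 1 and 11.5% in replicate 2, against 59.6% in replicate 1 and 70.9% in replicate 2 for coding Dnajc11-201. Dnajc5-204, of 3728 nt and classed as a target of nonsense-mediated decay, held 46.9% of TPM in replicate 1 and 34.8% in replicate 2. It had 1378 expected counts in replicate 1 and 1876 in replicate 2, against 868 and 1565 for coding Dnajc5-201. In Hsp90aa1, a short coding model of 711 nt, Hsp90aa1-208, held 80.3% of TPM in replicate 1 and 80.1% in replicate 2, and 38.8% of expected counts in replicate 1 and 39.3% in replicate 2, so its gene level rests on a short model too.

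Of the 20 genes with a mean under 1 TPM, 16 had some count. Genes known mainly from testis or from cilia were among the lowest. Dnajb13, of sperm tails and cilia, was at 0.20 TPM in replicate 1 and at 0.33 TPM in replicate 2, and Hspa1l at 0.11 TPM in replicate 1 and at 0.06 TPM in replicate 2. Hspb11, a subunit of transport particles in cilia, had 1 count in replicate 1 and 8 in replicate 2. Hspb3, a muscle gene, had 2 counts in replicate 1 and 0 in replicate 2, and Dnajb7 had 0 counts in replicate 1 and 2 in replicate 2. Hspb9, Dnajb8, Dnajc5b and Dnajc5g had 0 counts in both replicates, which at this depth bounds their share as given above. The 6 cilia and testis markers summed to 0.13 TPM in replicate 1 against 0.17 TPM in replicate 2. Dnajb3, also known from testis, was not among the lowest, at 2.17 TPM in replicate 1 and at 4.33 TPM in replicate 2. The auxilin gene Dnajc6, which uncoats clathrin vesicles in neurons, was at 0.35 TPM in replicate 1 and at 0.48 TPM in replicate 2. Dnajb4, Dnajc12, Dnajc18, Dnajc21, Dnajc27 and Dnajc28 ran from 0.08 to 0.86 TPM in replicate 1 and from 0.26 to 1.23 TPM in replicate 2. Around 1 TPM stood Dnaja4, at 1.01 TPM in replicate 1 and at 0.98 TPM in replicate 2, and the HSP110 relative Hspa4l, at 0.92 TPM in replicate 1 and at 1.99 TPM in replicate 2.

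Genes that work with these chaperones but lie outside the symbol rule gave a fuller picture of each compartment. The 19 ER folding partners summed to 890 TPM in replicate 1 against 1312 TPM in replicate 2, nearly all of it in coding transcripts. P4hb, the founding protein disulfide isomerase, was at 354 TPM in replicate 1 and at 577 TPM in replicate 2, above the coding transcripts of every Pdia gene in both libraries. Txndc5, another isomerase, was at 115 TPM in replicate 1 and at 196 TPM in replicate 2. Of the 19 partners 1 was over 2-fold higher in replicate 1, a share near the 6.32% of all genes, and none in replicate 2, against 5.03%. That 1 was Ero1lb, the oxidase of isomerases known from the pancreas, at 5.01 TPM in replicate 1 and at 2.23 TPM in replicate 2, while the calnexin gene Canx had the lowest centred ratio, -0.69.

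Of 17 genes of the unfolded protein response and ER degradation, 2 were over 2-fold higher in replicate 2, against 5.03% of all 12260 genes, and none in replicate 1, against 6.32%. These were Ddit3, the stress transcription factor CHOP, at 10.6 TPM in replicate 1 and at 43.7 TPM in replicate 2, and Trib3, a target of CHOP, at 4.05 TPM in replicate 1 and at 18.8 TPM in replicate 2. Ddit3 lies outside the naming rule and was chosen after its values were seen. Among the chaperones with an ER stress element, Hspa5 and Pdia6 had centred ratios of 0.20 and 0.40, Dnajc3 one of 0.06 and Hsp90b1 one of -0.03. The factor Xbp1, whose message is spliced on ER stress, had a centred ratio of -0.01, and Sel1l, of the degradation complex, had the highest of the list at 0.96. Plasma cell markers, which mark the main antibody-secreting cells of this tissue, summed to 32105 TPM in replicate 1 against 64049 TPM in replicate 2, with a median centred ratio of -0.17.

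The 21 cytosolic co-chaperone genes summed to 550 TPM in replicate 1 against 912 TPM in replicate 2, and of the 20 of mean 1 TPM or more 1 was over 2-fold higher in replicate 1, a share near the background of 6.32%, and none in replicate 2, against 5.03%. That 1 was Bag2, an inhibitor of the ubiquitin ligase CHIP, at 7.67 TPM in replicate 1 and at 4.59 TPM in replicate 2. Bag1, a nucleotide exchange factor of HSP70, was at 131 TPM in replicate 1 and at 164 TPM in replicate 2, and Fkbp5, an HSP90 partner, had the lowest centred ratio, -0.53. On coding transcripts 1 was over 2-fold higher in replicate 1, against 5.74%, and 1 in replicate 2, against 4.57%, the second being Fkbp4, another HSP90 partner, at 18.2 coding TPM in replicate 1 and at 78.7 in replicate 2, named after its values were seen. By centred ratio none of the 8 genes of the cytosolic chaperonin CCT and none of the 11 mitochondrial partners passed 2-fold in either direction, against the same 6.32% and 5.03%. The CCT genes summed to 147 TPM in replicate 1 against 286 TPM in replicate 2, and the mitochondrial partners to 214 TPM in replicate 1 against 318 TPM in replicate 2. Hspa8, Hsp90ab1 and Hspd1 and these partner sets thus showed the same order as plain TPM, lower in replicate 1, as the median gene did.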

How the data were processed

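For each library the authors deposited a gene table and a transcript table with expected counts (estimated fragments per feature), TPM, FPKM, posterior mean TPM and, for transcripts, the percent of the gene's TPM. The bounds of the deposited credibility intervals of TPM are used as scores to say whether intervals overlap; their level is not stated in the files. Per the labels' protocols the libraries are stranded, with paired reads of 76 nt and RNA above 200 nt, and the text beside the tables names mm10 and annotation M4. The sources used here name neither the aligner nor the quantifier. Depth was 45472946 and 45822403 expected counts.

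Symbols, classes and coordinates came from GENCODE M21 (GRCm38) by stable identifier, which matched 42462 of 43346 genes and 293 of the 311 transcripts of the genes described. Centred ratios, for genes of mean TPM 1 or more, with a pseudocount of 1 and calls past 2-fold, were computed in Python 3.11.15 (numpy 2.4.6, pandas 2.3.3) and tested on simulated data. Alternatives scaled expected counts, rounded to whole numbers, by edgeR 4.0.16 TMM factors or DESeq2 1.42.0 size factors (R 4.3.3). No test between groups was possible. The genes and lists were chosen with earlier results of these data known. Any of the 76 genes may be named; of other genes, the 4 of highest mean TPM and the highest and lowest centred ratio of each list. Protein motifs were not used here.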

Additional observations from a re-analysis of the deposited data

How the results depend on the processing

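No paired analysis was possible because both replicates belong to 1 group. Values are means of both replicates. Leaving out either replicate gave sums of 2476 to 3032 TPM over all members, 1205 to 1269 TPM for the ER lumen, 803 to 1101 TPM for the cytosolic core and 139 to 211 TPM for mitochondria, a log2 ER to cytosol ratio of 0.20 to 0.58 and 54 to 59 genes detected. On coding transcripts the sums were 948 TPM over all members, 244 TPM for the ER lumen and 262 TPM for the cytosolic core, and the mean ER to cytosol ratio reversed to -0.19, although replicate 1 stayed above 0 at 0.68. On coding transcripts without Pdia2 the sums were 853 TPM over all members and 149 TPM for the ER lumen, and the ratio was -0.78, below 0 in both replicates. Rescaled without pancreas and stomach markers the sums were 3260 TPM over all members and 1483 TPM for the ER lumen; without Pdia2 the ER lumen held 1143 TPM, and without the top gene of each list the ER to cytosol ratio was 0.75. Genes over 2-fold higher in replicate 1 numbered 1 with a pseudocount of 5, with no TPM minimum or without centring, and those higher in replicate 2 numbered 0 with a pseudocount of 5 or a minimum of 10 TPM and 6 with no minimum or without centring. Medians moved to -0.46 (no minimum) and -0.56 (not centred) over all members, to -0.58 (no minimum) and -0.62 (not centred) for the cytosolic core and to -0.61 under both for mitochondria. With no minimum the centring falls to 0, since most listed genes have no counts. The ER lumen median was 0.19 with a pseudocount of 5, -0.27 with no minimum or without centring, 0.63 with TMM factors, 0.62 with DESeq2 factors and 0.036 on spike-in RNAs. The other 90 comparisons of these values with an alternative stayed within the spread or within 1.5 times the count. For sums and the ER to cytosol ratio the spread was the SD, so leaving out a replicate stays within it by construction. For medians it was the median before centring over the square root of 2, wide enough to hold a change of sign. Centred on the spike-in RNAs, medians were -0.26 over all members and -0.31 for both the cytosolic core and mitochondria. For single genes 139 values moved and 164 did not, the latter including isoform shares with a replicate left out, also fixed by construction.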

Other observations

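The tables also list 10 processed pseudogenes whose symbols carry the same stems, among them copies of Hspe1, Hspd1, Hspa9, Dnajc19 and Dnaja1, and all 10 had 0 counts in both replicates. At the depth of these libraries that bounds each at 6.60e-06% of counts in replicate 1 and 6.55e-06% in replicate 2. The sources used here do not say how reads that match a gene and its processed copy equally well were divided, so a count of 0 does not show that no such read was present.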
